A study of Mus musculus with 6 samples.

Results

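The 8 prostanoid receptor genes Ptger1, Ptger2, Ptger3, Ptger4, Ptgfr, Ptgir, Ptgdr and Tbxa2r and the prostaglandin transporter gene Slco2a1 were followed in mouse penile tumors and in normal penile epithelium. These 9 genes, chosen by symbol, are 9 of the 24063 gene symbols with counts, and all 9 passed the filter on low counts. SA tumors came from 3 mice of the genotype PB-Cre+ Smad4L/L ApcL/L, in which Cre is driven by an androgen-responsive promoter and deletes Smad4 and Apc in epithelial cells, so that stromal and immune cells in the tumor keep both genes. Those tumors arose spontaneously. Normal penile epithelium came from 3 WT C57BL/6 mice of the same age, and all 6 mice were 5 months old males. The strain of the SA mice is not given in the sources used here, so strain and genotype cannot be told apart. Each sample is 1 mouse, measured once by stranded paired-end RNA-seq of bulk tissue, in which fewer cells of a type and less RNA per cell cannot be told apart.

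Prostanoids are short-lived lipid signals made from arachidonic acid. Cyclooxygenases form a common intermediate, and terminal synthases turn it into prostaglandin E2, D2, F2α, prostacyclin or thromboxane. Each product acts on its own G protein-coupled receptor. Prostaglandin E2 has the receptors EP1 (Ptger1), EP2 (Ptger2), EP3 (Ptger3) and EP4 (Ptger4). Prostaglandin F2α acts on FP (Ptgfr), prostacyclin on IP (Ptgir), prostaglandin D2 on DP1 (Ptgdr) and thromboxane on TP (Tbxa2r). EP2, EP4, IP and DP1 couple to Gs and raise cAMP, EP3 mainly couples to Gi and lowers it, and EP1, FP and TP mainly signal through Gq and calcium. In skin and other squamous epithelia, EP receptors on keratinocytes and immune cells take part in inflammation and tumor promotion. Slco2a1 encodes PGT, the carrier that takes prostaglandins up into cells, where they are broken down.

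Gene rows held 23828283 to 32871142 counts in 5 samples and 110509147 in SA tumor 3, a depth 4.42 times the median of the remaining samples. Levels are given as CPM, read counts scaled to a common library size with TMM, for comparisons between samples, and as deposited TPM, which is per transcript length, for comparisons between genes. A gene was called changed at an adjusted p-value under 0.01 in edgeR's quasi-likelihood test, and the log2 fold change threshold of the study's methods is 2 in size. Smad4 was lower in SA tumors, at 36.1 to 46.1 CPM against 61.2 to 72.5 in WT penises (log2 fold change -0.77, adjusted p = 0.00114, edgeR). Apc was higher, at 194 to 253 CPM against 62.5 to 91.1, and counts over a whole transcript cannot show that part of it was deleted. Squamous epithelial markers were present in every sample (Krt5 at 3070 CPM or more).

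The members lie on 7 chromosomes of mm10 (GRCm38), and Ptgdr and Ptger2 are neighbours. Ptgdr (NM_008962, chromosome 14, 44851235 to 44859375, minus strand) and Ptger2 (NM_008964, chromosome 14, 44988195 to 45003820, plus strand) are transcribed away from each other, 128.8 kb apart, with 0 annotated protein-coding genes between them. RefSeq promoter windows were found for 8 of the 9 members, with 2 windows for Tbxa2r. Ptger1 had no entry. The 250 bases before the start are shown for Ptgdr, which rose in SA tumors, for its neighbour Ptger2, which did not pass the test, and for Ptger3 and Ptgfr, which fell, with every CpG in capitals (RefSeq, GRCm38.p6).
Ptgdr, chr14:44859376-44859625, minus strand: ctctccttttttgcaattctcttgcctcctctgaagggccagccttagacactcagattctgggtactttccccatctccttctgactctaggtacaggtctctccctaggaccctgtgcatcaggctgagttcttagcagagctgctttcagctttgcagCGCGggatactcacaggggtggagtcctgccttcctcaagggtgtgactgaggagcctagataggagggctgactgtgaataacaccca
Ptger2, chr14:44987861-44988110, plus strand: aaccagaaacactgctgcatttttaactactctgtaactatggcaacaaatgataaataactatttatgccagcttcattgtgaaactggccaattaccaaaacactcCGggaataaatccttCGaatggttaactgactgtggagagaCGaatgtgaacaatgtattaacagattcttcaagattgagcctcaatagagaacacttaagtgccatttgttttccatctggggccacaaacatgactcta
Ptger3, chr3:157566626-157566875, plus strand: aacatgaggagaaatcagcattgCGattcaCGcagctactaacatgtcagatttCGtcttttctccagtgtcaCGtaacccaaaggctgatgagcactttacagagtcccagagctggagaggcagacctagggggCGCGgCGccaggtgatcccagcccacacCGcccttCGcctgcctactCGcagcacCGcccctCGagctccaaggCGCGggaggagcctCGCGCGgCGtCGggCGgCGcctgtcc
Ptgfr, chr3:151837529-151837778, minus strand: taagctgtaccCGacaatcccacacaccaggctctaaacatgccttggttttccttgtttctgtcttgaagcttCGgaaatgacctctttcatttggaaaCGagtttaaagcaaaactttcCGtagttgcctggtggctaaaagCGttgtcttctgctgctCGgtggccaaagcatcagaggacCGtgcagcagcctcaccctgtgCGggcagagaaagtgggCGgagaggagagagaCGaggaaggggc

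These windows differ in base content. The Ptgdr window holds 2 CpG and the Ptger2 window 3, whereas the Ptgfr window holds 10 and the Ptger3 window 21, against a median of 6 over 32851 promoter windows. Among the members not shown, Ptger4 has 19, Slco2a1 12 and Ptgir 5, and the 2 Tbxa2r windows have 1 and 7. Both strands were searched for TCF/LEF cores, which cannot match at the same position. The core CTTTGAA, present in 4.46% of all windows, had 0 matches in the 9 member windows. The same was true of the core CTTTGAT (3.21% of all windows) and of the core CTTTGTT (5.03%). The cAMP half-site TGACG, found in 17.8% of all windows, occurred once, on the plus strand of the second Tbxa2r window from -26 to -22 bases of the start. These are descriptions of letters in 1 window per start.

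Of the 9 members, 2 rose and 3 fell in SA tumors at an adjusted p-value under 0.01 (edgeR). Over all 16336 genes tested, 20.1% rose and 17.5% fell at that threshold, 37.6% in all. The 2 that rose were Ptgdr and Ptgir, both receptors coupled to Gs. The 3 that fell were Ptger3, Ptgfr and Slco2a1. None of the 9 also reached a log2 fold change of 2 in size, whereas 13.0% of all genes passed both thresholds, 9.41% higher and 3.59% lower. The median size of the log2 fold change was 1.17 over the members and 0.49 over all genes tested. In all 9, no SA tumor overlapped a WT penis in CPM, with 5 higher and 4 lower in SA tumors, and 63.4% of all genes tested were without overlap. The remaining 4 members, Tbxa2r, Ptger1, Ptger2 and Ptger4, had adjusted p-values of 0.0127 to 0.0246 (edgeR). At a threshold of 0.05, chosen after the values were seen, all 9 passed, as did 53.4% of all genes. Against a log2 fold change of 1 instead of 0, none of the 9 passed (edgeR's glmTreat, adjusted p = 0.0446 or more).

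**Figure D1:**
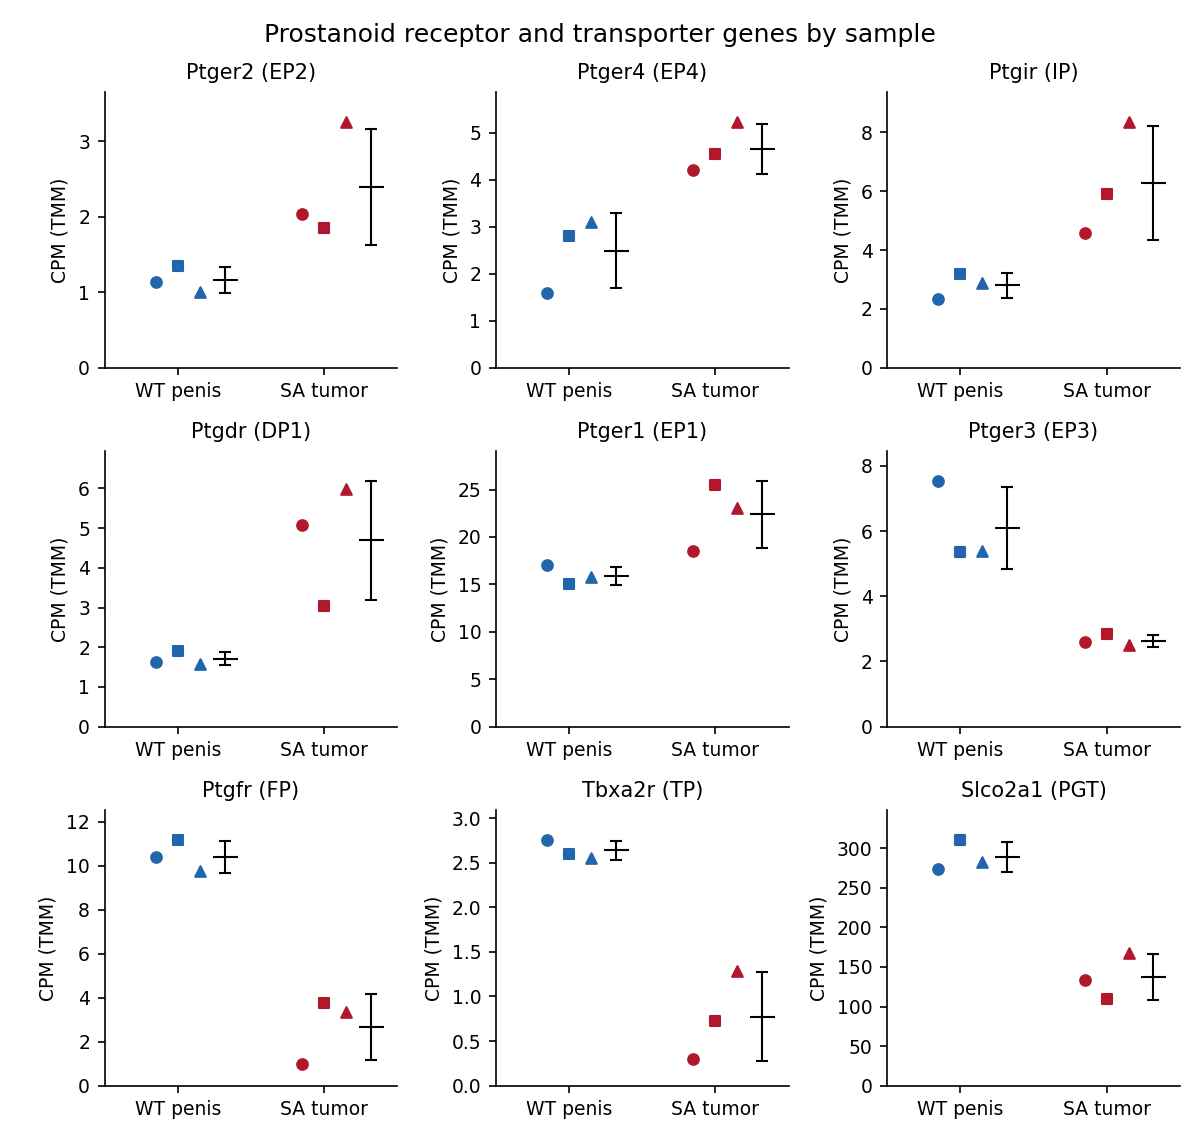
CPM (TMM-scaled, linear axis from 0) of each member in WT penises (blue) and SA tumors (red), with circle, square and triangle for replicates 1, 2 and 3 and the black bar for mean ± SD (n = 3). The 4 Gs-coupled receptors and Ptger1 sit higher in SA tumors, and Ptger3, Ptgfr, Tbxa2r and Slco2a1 sit lower, with no overlap in any panel.

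Of the 4 receptors that raise cAMP, Ptgdr and Ptgir rose in SA tumors, and Ptger2 and Ptger4 did not pass. Ptgdr, the DP1 receptor for prostaglandin D2, was at 5.09, 3.05 and 5.98 CPM in SA tumors 1, 2 and 3 and at 1.63, 1.90 and 1.59 in the WT penises. The lowest tumor was 1.61 times the highest WT sample. Its fold change was 2.76 (log2 1.47, standard error 0.295, adjusted p = 0.00331, edgeR). The call was lost, at adjusted p-values of 0.0161, 0.0120 and 0.0148, when WT penis 1, 2 or 3 was left out.

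Ptgir (NM_008967, chromosome 7, 16906490 to 16910905), the prostacyclin receptor known from vessels and platelets, was at 4.57, 5.89 and 8.37 CPM in SA tumors and at 2.35, 3.17 and 2.87 in WT penises. SA tumor 3, the deepest library, was the highest of the 6. The fold change was 2.25 (log2 1.17, standard error 0.270, adjusted p = 0.00645, edgeR). This call rested on the full set of samples, since it was kept only without SA tumor 1. The adjusted p-value was 0.0166 and 0.0129 without SA tumor 2 or 3, and 0.0296, 0.0184 and 0.0222 without WT penis 1, 2 or 3.

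Ptger2 and Ptger4 encode the EP receptors through which prostaglandin E2 raises cAMP, and neither passed the test. Ptger2 was at 2.04, 1.85 and 3.26 CPM in SA tumors and at 1.13, 1.34 and 1.00 in WT penises (log2 fold change 1.06, standard error 0.314, adjusted p = 0.0207, edgeR). Only 22 to 40 counts in WT penises and 55, 56 and 402 in SA tumors lie behind these values. Ptger4 (NM_001136079, chromosome 15, 5206661 to 5244187) was at 4.20, 4.54 and 5.24 CPM in SA tumors and at 1.58, 2.80 and 3.10 in WT penises (log2 fold change 0.90, standard error 0.279, adjusted p = 0.0246, edgeR). WT penis 1 was well below the other WT samples, and the spread was 32.2% of the mean in that group. Ptger4 passed by DESeq2 (adjusted p = 0.00662), and Ptger2 and Ptger4 both passed without a scaling factor (adjusted p = 0.00710 and 0.00841, edgeR). That scaling moved the median log2 fold change of all genes from 0.029 to 0.315, and with it 5248 genes rose and 1806 fell at an adjusted p-value under 0.01, against 3283 and 2865 with TMM.

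Of the immune cell lists, neutrophil markers were higher in SA tumors, and the sums of the others overlapped between the groups. The 6 neutrophil markers with counts summed to 1440 to 2520 CPM in SA tumors and 84.6 to 151 in WT penises, with 5 of the 6 higher. T cell markers summed to 7.40 to 18.7 CPM against 3.14 to 7.41, with 1 of 5 tested higher, and mast cell markers to 33.0 to 97.8 against 30.1 to 46.6, with 1 of 7 higher. Macrophage markers summed to 130 to 314 CPM in SA tumors and 205 to 293 in WT penises, and 0 of 6 changed by edgeR or DESeq2, also at an unadjusted p-value under 0.05. No marker of these lists was at 0 in every sample of a group. The endothelial and platelet sums, given below, were lower in SA tumors, whereas Ptgir, known from vessels and platelets, rose. The part of any of these cells in the levels of Ptgdr, Ptgir, Ptger2 and Ptger4 was not tested.

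Ptger1 (NM_013641, chromosome 8, 83666678 to 83672753, plus strand), the EP1 receptor, had the highest level of the 8 receptors. It was at 18.5, 25.5 and 23.1 CPM in SA tumors and at 17.0, 15 and 15.8 in WT penises (log2 fold change 0.49, standard error 0.145, adjusted p = 0.0201, edgeR). SA tumor 1 was close to WT penis 1, and without SA tumor 1 the adjusted p-value was 0.00559. Per transcript length, it was at 15.9, 20.9 and 20.3 TPM in SA tumors and at 10.4, 10.05 and 11 TPM in WT penises. The libraries were stranded, but the strand setting of the counting is not given in the sources used here, so reads from the opposite strand of the Ptger1 exons cannot be told apart from its own. Every comparison that includes Ptger1 carries this limit.

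Ptger3, Ptgfr and Tbxa2r encode receptors that lower cAMP or raise calcium and are known for contracting smooth muscle. Ptger3 and Ptgfr fell in SA tumors, and Tbxa2r did not pass. Ptger3 (NM_011196, chromosome 3, 157566892 to 157645888) was at 2.60, 2.85 and 2.49 CPM in SA tumors and at 7.55, 5.37 and 5.38 in WT penises. The 3 tumors were close to each other, with a spread of 6.99% of the mean. Ptger3 fell by 1.21 on the log2 scale, a level 2.31 times higher in WT penises (standard error 0.22, adjusted p = 0.00193, edgeR), and it passed without any 1 of the 6 samples.

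Ptgfr (NM_008966, chromosome 3, 151796502 to 151837630), the prostaglandin F2α receptor, had the largest change of the 9. It was at 0.966, 3.74 and 3.34 CPM in SA tumors and at 10.4, 11.2 and 9.75 in WT penises. SA tumor 1 was far below the other SA tumors, with 26 counts. Ptgfr fell by 1.94 on the log2 scale (standard error 0.409, adjusted p = 0.00454, edgeR). Without WT penis 1, 2 or 3 the adjusted p-value was 0.0194, 0.0193 and 0.0156, and the call was lost.

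Tbxa2r (NM_009325, chromosome 10, 81328731 to 81335172), the thromboxane receptor, was at 0.297, 0.728 and 1.29 CPM in SA tumors, with 8, 22 and 159 counts, and at 2.76, 2.60 and 2.55 in WT penises. The tumors differed among themselves by more than any WT sample differed from another. Its log2 fold change of -1.66 had a standard error of 0.441 and did not pass (adjusted p = 0.0127, edgeR). It passed without SA tumor 1 (log2 fold change -1.33, adjusted p = 0.00980) and without SA tumor 3 (-2.33, adjusted p = 0.00157). It also passed by DESeq2 (-1.72, adjusted p = 0.000714).

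Smooth muscle markers were lower in SA tumors as well. All 8 markers fell, with a median log2 fold change of -4.15, and their sum was 89.8, 161 and 197 CPM in SA tumors 1, 2 and 3 against 1630 to 2140 in WT penises. SA tumor 1, the lowest for Ptgfr and Tbxa2r, was also the lowest tumor for this sum, as it was in 8 of the 9 marker lists (all but neutrophils). Ptger3 was nearly level over the 3 tumors, at 2.60, 2.85 and 2.49 CPM in SA tumors 1, 2 and 3, on 70, 86 and 306 counts. The myosin gene Myh11 was at 3.12 CPM in SA tumor 1, at 21.3 and 36.7 in the other SA tumors and at 586 to 794 in WT penises. Endothelial markers summed to 176 to 285 CPM in SA tumors and 313 to 417 in WT penises, with 3 of 8 lower, and platelet markers to 85.2 to 117 against 147 to 185, with 1 of 4 tested lower and 1 higher. Fibroblast markers summed to 1060, 2640 and 3350 CPM in SA tumors against 3900 to 4250, with 1 of 7 lower. No marker of these lists was at 0 in every sample of a group, and the part of these cells in the levels of Ptger3, Ptgfr and Tbxa2r was not tested.

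**Figure D2:**
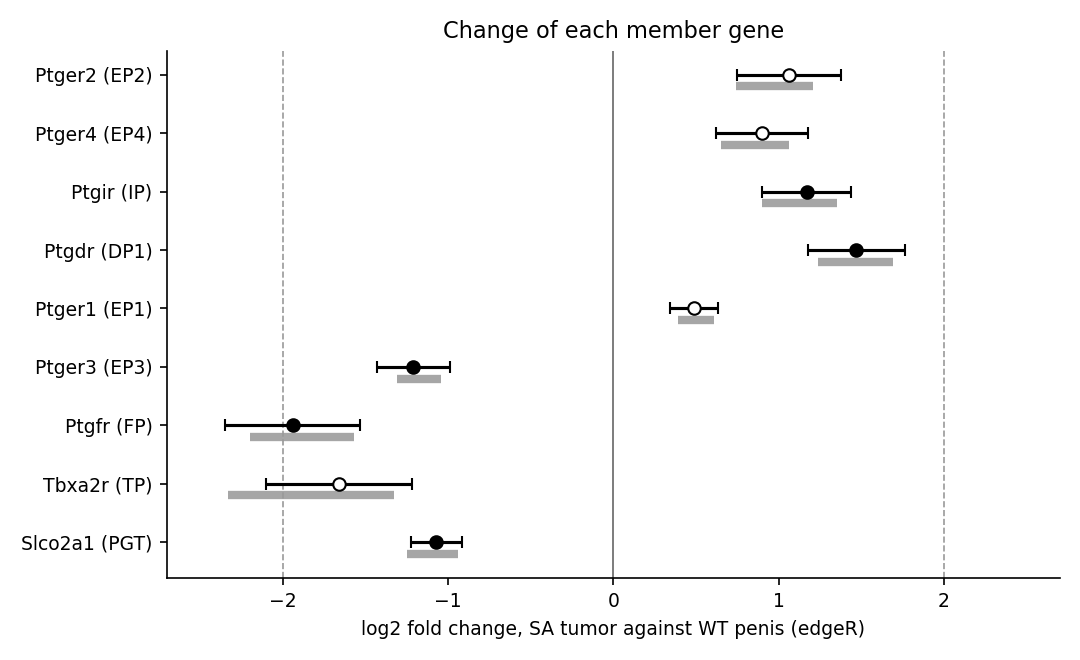
Log2 fold change of each member, SA tumor against WT penis, with its standard error (horizontal bars). Filled points passed an adjusted p-value of 0.01 and open points did not. Grey bands give the range over fits that leave out 1 sample, and dashed lines mark a log2 fold change of 2 in size, which no point reaches.

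Slco2a1 (NM_033314, chromosome 9, 102988712 to 103096002), the prostaglandin uptake carrier, was the highest of the 9 genes and fell in SA tumors. It was at 134, 110.0 and 168 CPM in SA tumors and at 274, 311 and 283 in WT penises, so that the lowest WT sample was 1.63 times the highest tumor. It fell by 1.07 on the log2 scale, a level 2.10 times higher in WT penises (standard error 0.154, adjusted p = 0.000555, edgeR), and passed without any 1 of the 6 samples. Squamous epithelial markers were lower as well, as were the smooth muscle, endothelial, fibroblast and platelet sums given above. The squamous markers summed to 24600 to 30000 CPM in SA tumors and 69200 to 75300 in WT penises, with 6 of 8 lower, among them Krt5 (log2 fold change -1.21) and Trp63 (-0.82). The keratin genes Krt14 and Krt4 had log2 fold changes of -0.49 and 0.03 and did not pass. The part of the cell mix in the level of Slco2a1 was not tested.

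Values of a cyclooxygenase, an efflux pump, a breakdown enzyme and a synthase, chosen with earlier results known, are set beside Slco2a1. Ptgs2, the inducible cyclooxygenase, rose, with 30.0, 19.3 and 45.7 CPM in SA tumors and 0.769, 4.01 and 4.01 in WT penises. Abcc4, an efflux pump that carries prostaglandins out of cells, rose from 24.4 ± 1.85 to 95.1 ± 18.3 CPM (SD, n = 3 each, log2 fold change 1.96, adjusted p = 2.04e-05, edgeR). Hpgd, the enzyme that inactivates prostaglandins after uptake, fell from 285 ± 10.8 to 21.5 ± 5.49 CPM (SD, n = 3 each, log2 fold change -3.72, adjusted p = 2.80e-06, edgeR). Ptges, a synthase of prostaglandin E2, had a log2 fold change of -0.16 (adjusted p = 0.350, edgeR). The ratio of Slco2a1 to Abcc4 in TPM was 16.4 to 17.3 in WT penises and 1.67, 1.66 and 3.09 in SA tumors.

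Per transcript length, the order of the members differed between the groups. In WT penises it was Slco2a1 (98.6 ± 10.6 TPM), Ptger1 (10.5 ± 0.457), Ptger3 (4.12 ± 0.585), Ptgfr (3.25 ± 0.265), Tbxa2r (1.85 ± 0.0398), Ptgir (1.16 ± 0.225), Ptger4 (1.04 ± 0.385), Ptgdr (0.736 ± 0.0907) and Ptger2 (0.421 ± 0.0639; SD, n = 3 each). Of neighbours in that order, only Ptgir and Ptger4, and Ptger4 and Ptgdr, overlapped between samples. In SA tumors Slco2a1 (60.7 ± 14.8 TPM) and Ptger1 (19.0 ± 2.74) again came first, and Ptgir (3.35 ± 1.10), Ptgdr (2.64 ± 0.913), Ptger4 (2.49 ± 0.335) and Ptger3 (2.32 ± 0.0849) overlapped with their neighbours. Ptger2 (1.13 ± 0.395), Ptgfr (1.07 ± 0.592) and Tbxa2r (0.707 ± 0.472) were below those and also overlapped (SD, n = 3 each). Among all symbols with a TPM above 0, Slco2a1 stood at the 94.7th percentile in WT penises and the 89.8th in SA tumors, whereas the receptors other than Ptger1 stood between the 22.0th and the 42.6th.

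The mix of receptor transcripts within a sample separated the groups. The 8 receptors summed to 22.6, 23.0 and 23.6 TPM in WT penises and 27.4, 33.3 and 37.5 in SA tumors, with the limit given for Ptger1. Without Ptger1, the other 7 receptors came to 12.2, 12.9 and 12.6 TPM in WT penises and 11.5, 12.3 and 17.3 in SA tumors. TPM lacks the TMM scaling, whose factors were 1.1 to 1.11 in SA tumors and 0.884 to 0.921 in WT penises. These sums therefore do not compare the total level between the groups, whereas shares within a sample do not depend on that scaling. The 4 Gs-coupled receptors made up 21.0%, 29.6% and 29.3% of the summed TPM of the 7 receptors in WT penises and 74.2%, 63.5% and 72.0% in SA tumors. The share of Ptger3, coupled to Gi, was 32.9% ± 5.71 in WT penises and 17.5% ± 3.94 in SA tumors, and that of the Gq-coupled Ptgfr and Tbxa2r together was 40.5% ± 1.05 and 12.6% ± 5.96 (SD, n = 3 each). Ptger1, itself coupled to Gq, is left out of these shares. It made up 46.1%, 43.7% and 46.5% of the summed TPM of all 8 receptors in WT penises and 58.0%, 62.9% and 54.0% in SA tumors. With Ptger1 counted, Gs-coupled receptors were therefore not the majority in any SA tumor. No test was made of these shares, since the members were chosen with results of these data known.

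Among the EP receptors other than EP1, the mix for prostaglandin E2 was also different. Ptger3 held 82.8%, 69.0% and 69.0% of the summed TPM of Ptger2, Ptger3 and Ptger4 in WT penises and 41.7%, 43.2% and 33.5% in SA tumors. Ptger4 held 10.5%, 21.8% and 24.1% in WT penises and 40.8%, 41.7% and 42.9% in SA tumors, and Ptger2 held 7.57% ± 1.40 and 18.7% ± 4.39 (SD, n = 3 each). With Ptger1 included, it made up 65.2% ± 0.992 of the 4 EP receptors in WT penises and 76.1% ± 2.52 in SA tumors (SD, n = 3 each), with the limit given for its counts. Of that total, Ptger2 held 2.63% ± 0.496 in WT penises and 4.52% ± 1.35 in SA tumors, with overlap between the groups. Ptger4 held 6.50% ± 2.39 and 9.99% ± 1.04, and Ptger3 25.6% ± 3.42 and 9.40% ± 1.24, both without overlap (SD, n = 3 each).

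**Figure D3:**
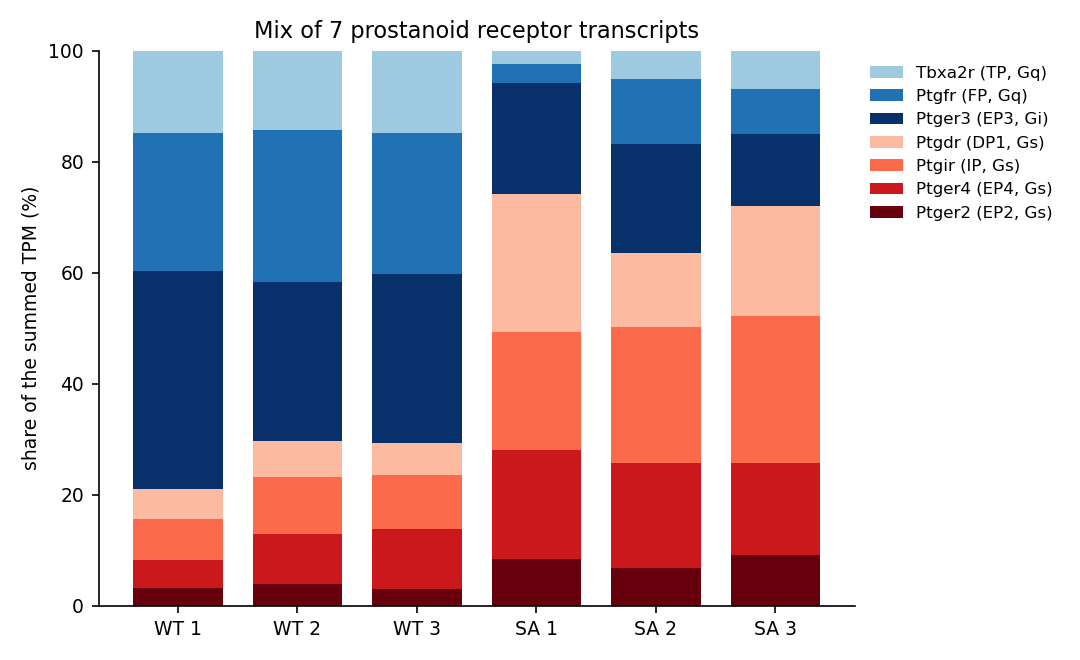
Share of each receptor in the summed TPM of the 7 receptors other than Ptger1, for each WT penis and SA tumor (stacked bars to 100%). Gs-coupled receptors (reds) make up 21.0% to 29.6% of the bars in WT penises and 63.5% to 74.2% in SA tumors. Gi- and Gq-coupled receptors other than Ptger1 (blues) make up the rest. Ptger1, coupled to Gq and the highest of the receptors, is left out.

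Other genes of prostanoid signaling were taken from fixed lists by role. Of 74 genes, 73 were tested, 19 rose, 12 fell and 42 did not pass, where 20.1% of all genes rose and 17.5% fell, with a median log2 fold change of 0.05 against 0.03 over all genes. Ptgdr2, the second receptor for prostaglandin D2 (DP2), was at 1.60, 2.85 and 1.58 CPM in SA tumors and 0.904, 1.00 and 1.05 in WT penises, without overlap (log2 fold change 1.01, adjusted p = 0.0304, edgeR). Ptgfrn, a membrane protein that binds FP, was at 241 ± 23.8 and 237 ± 45.9 CPM (SD, n = 3 each, adjusted p = 0.897, edgeR). Of 2 cyclooxygenases, Ptgs2 rose (log2 fold change 3.42) and Ptgs1 was at 0.34 (adjusted p = 0.0259, edgeR).

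Terminal synthases and breakdown enzymes changed in both directions. Of 10 synthases, Hpgds, a prostaglandin D2 synthase of blood cells, and Cbr1 rose by log2 fold changes of 2.41 and 0.71. Ptgis, the prostacyclin synthase, and Ptgds, the other prostaglandin D2 synthase, fell by 3.12 and 3.05 on the log2 scale. Ptgis, whose product is the ligand of IP, was at 3.16, 9.30 and 9.74 CPM in SA tumors and 62.6 to 70.7 in WT penises. Tbxas1, the thromboxane synthase, was at 1.63 ± 0.953 and 1.54 ± 0.131 CPM (SD, n = 3 each, adjusted p = 0.863, edgeR). Of 3 breakdown enzymes, Ptgr1 rose (log2 fold change 2.31) and Hpgd fell. Of 4 efflux and related carriers, Abcc4 and Slco3a1 rose, the latter by a log2 fold change of 0.99.

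Downstream of the receptors are adenylyl cyclases, which make cAMP. Of 9 tested, Adcy8, Adcy7, Adcy1 and Adcy2 rose, by log2 fold changes of 4.84, 2.36, 2.34 and 2.30, and Adcy5 and Adcy9 fell by 2.18 and 1.36. Of 9 phosphodiesterases that break cAMP down, Pde4d, Pde7b and Pde4b rose, by 2.50, 1.65 and 1.21, and 0 fell by edgeR, with 1 lower by DESeq2 and 1 lower at an unadjusted p-value under 0.05. Of 8 G protein alpha subunits, Gna12 rose by 0.73 and Gnai1 and Gnai3 fell by 1.94 and 0.62 on the log2 scale, while Gnas, which encodes Gs, had a log2 fold change of -0.06 (adjusted p = 0.610, edgeR). Of 6 protein kinase A subunits, Prkar2b and Prkar1b rose and Prkaca fell. Of 4 phospholipase C beta genes, Plcb2 and Plcb1 rose and Plcb3 fell. Of 6 genes for receptor kinases and arrestins, Grk6 rose and Adrbk1 fell.

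Of 10 genes known to rise with cAMP, 0 rose and 2 fell in SA tumors at an adjusted p-value under 0.01 (edgeR), beside 20.1% and 17.5% of all genes, with a median log2 fold change of -0.84. DESeq2 called 1 higher and 2 lower, and at an unadjusted p-value under 0.05 edgeR had 2 higher and 4 lower. Sik1 was at 57.6 to 63.9 CPM in SA tumors and 189, 342 and 296 in WT penises 1, 2 and 3 (log2 fold change -2.19, adjusted p = 5.65e-05, edgeR). Per1 was at 44.3 to 60.0 CPM in SA tumors and 81.5, 153 and 197 in WT penises, and fell by 1.40 on the log2 scale (adjusted p = 0.00783, edgeR). Of the WT samples, WT penis 1 was the lowest for both genes. The immediate early genes of this list differed widely among the WT penises. Fos was at 3.71, 519 and 35.5 CPM in WT penises 1, 2 and 3 and at 23.7 to 29.6 in SA tumors, and Nr4a1 was at 8.09, 124 and 119 CPM against 16.1 to 19.5. Their adjusted p-values were 0.158 and 0.0718 (edgeR).

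**Figure D4:**
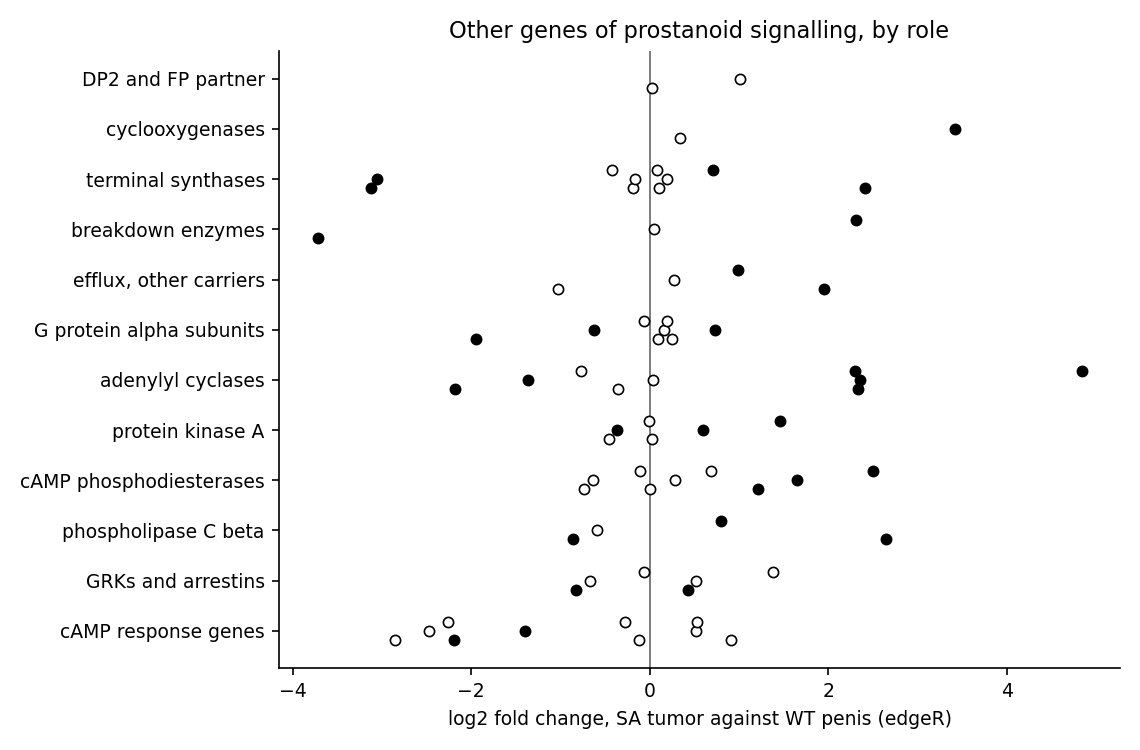
Log2 fold change, SA tumor against WT penis, of the 73 tested genes of prostanoid signaling other than the members, 1 point a gene, by role (vertical offsets only separate points). Filled points passed an adjusted p-value of 0.01 (19 higher, 12 lower) and open points did not, and the only filled cAMP response genes are Sik1 and Per1, both below 0.

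For each called member, the genes with the most similar pattern were read from the log2 CPM of the 6 samples. With 2 groups this far apart, Pearson's r is mostly set by the group difference, and 256 to 1384 genes had an r over 0.95 with a called member. For Ptger3 these were Gpsm2 (r = 0.9992) and Suds3 (0.9991), for Ptgfr Unc45b (0.9973) and Tmprss5 (0.9968), and for Slco2a1 Ift88 (0.9990) and E330013P04Rik (0.9989). For Ptgir they were Ak8 (0.9955) and Naip7 (0.9948), and for Ptgdr Gimap8 (0.9967) and Arl14ep (0.9944). Unc45b, a myosin chaperone of striated muscle, was at 6.23 CPM in WT penises and 1.57 in SA tumors, and Gimap8, a GTPase gene of lymphocytes, at 3.99 and 10.7.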

How the data were processed

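RNA from 3 SA tumors and 3 WT penises was sequenced. Alignment to mm10 used TopHat and counting used HTSeq (versions not given in the sources used here), and the authors deposited raw counts, FPKM and TPM for RefSeq transcripts. FPKM deposited by the authors was used only to read transcript lengths. Deposited TPM gave levels between genes. Each symbol was represented by its transcript row with the highest mean count. Ptger4 and Tbxa2r have 2 rows each. Symbols were filtered with filterByExpr (10 counts at the median library, 0.380 CPM, in 3 samples), which left 16336, and tested in R 4.3.3 with edgeR 4.0.16 (TMM, robust quasi-likelihood F-test, Benjamini-Hochberg adjustment over all genes). The standard error is the log2 fold change divided by the square root of F. DESeq2, the tool of the study's methods, was an alternative. Each p-value weighs the difference between the groups against the spread between samples of a group, where the spread of a gene is adjusted by that of all genes.

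A count of 3 equals 0.0244 to 0.137 CPM, which covers counting error only. On simulated counts of this comparison over 16336 genes, edgeR recovered 39 of 99 tested genes at a simulated log2 fold change of 1 and 85 of 100 at 2, and called 2 unchanged genes. Replicate numbers are not stated to mark pairs.

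Positions and neighbours come from GENCODE M21 on GRCm38, promoters from RefSeq GRCm38.p6. The members and lists were chosen with earlier results of these data known. Named were all members, Smad4, Apc, Ptgs1, Ptgs2, Ptges, Ptgis, Ptgds, Tbxas1, Hpgd, Abcc4, Ptgdr2, Ptgfrn, up to 4 called genes with the largest change of each other list, the 2 genes most like each called member, neighbours and defining markers. Fos, Nr4a1 and Gnas were named after their values were seen. A further gene that this rule covers is not reported here.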

Additional observations from a re-analysis of the deposited data

How the results depend on the processing

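Over 11 alternatives and 6 fits that leave out a sample, none of the 153 log2 fold changes of the 9 members changed sign. Since the groups did not overlap in CPM for any member, leaving out 1 sample could hardly reverse a sign. The glmTreat fit keeps the log2 fold changes of the main fit, so it could not reverse one either. Without a scaling factor, 5 members rose, with log2 fold changes of 0.78 for Ptger1, 1.35 for Ptger2 and 1.18 for Ptger4 now past the threshold, and 5248 of all genes and 30 of the other pathway genes rose while 1806 of all genes fell and 3 pathway genes fell past both thresholds. Against a log2 fold change of 1 (glmTreat), 0 members rose and 0 fell, at unchanged log2 fold changes of -1.21 for Ptger3, -1.94 for Ptgfr, 1.17 for Ptgir, 1.47 for Ptgdr and -1.07 for Slco2a1, and 1539 and 755 of all genes and 9 and 6 pathway genes passed; 1 member passed 0.05. Tbxa2r passed with no filter on low counts (-1.67), by DESeq2 (-1.72), from its first listed row (-1.75) and with SA tumor 3 thinned to 0.226 of its reads (-1.76), and Ptger4 passed by DESeq2 (0.89). With the sum of transcript rows, Ptger1 held 69.1% of the EP receptor level in SA tumors and 61.2% in WT penises, and Ptger4 18.3% and 12.2%. The 2 rows of Ptger4 had nearly the same counts (645 and 643 in SA tumor 3). Their sum thus probably counts the same reads again, which raises the share of Ptger4 and lowers that of Ptger1.

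Leaving out 1 sample gave 0 to 3 members higher, 2 to 4 lower, and 0 to 2 lower past both thresholds (Ptgfr without SA tumor 2, Ptgfr and Tbxa2r without SA tumor 3). Log2 fold changes ran from 0.39 to 0.61 for Ptger1, -2.20 to -1.57 for Ptgfr, 0.90 to 1.35 for Ptgir, 1.24 to 1.69 for Ptgdr and -2.33 to -1.33 for Tbxa2r. The other pathway genes lower past both thresholds numbered 4 to 8, with 8 without WT penis 1. Deviations from the group means correlated at -0.13, -0.10 and 0.02 between samples with the same replicate number, and at -0.15 to 0.21 between other pairs. Deviations from a mean of 3 samples constrain each other, so these values cannot show whether samples were handled together. With the number as a replicate block, 1 member passed both thresholds, Ptgfr at -2.09, and 2 members rose and 3 fell. With 3 samples a group and 8 to 40 counts behind the lowest values, changes under a log2 fold change of 1 were often not detectable.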

Other observations

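Genes next to the members on the chromosome were read as well. Of 16 neighbouring protein-coding genes that are no members, 13 were tested and 3 passed (23.1%, against 37.6% of all genes). Gng8, a G protein gamma subunit gene beside Ptgir, rose from 1.27 to 4.13 CPM (log2 fold change 1.70, adjusted p = 0.00125, edgeR). Gipc2, beside Ptgfr, rose from 1.36 to 8.61 CPM (log2 fold change 2.66, adjusted p = 2.80e-05, edgeR), whereas Ptgfr fell. Rab6b, a Golgi GTPase gene beside Slco2a1, fell from 54.4 to 16.6 CPM (log2 fold change -1.71, adjusted p = 1.03e-05, edgeR).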
